A study of Arabidopsis thaliana with 8 samples.

Results

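The data describe the drought response shared by a pair of Arabidopsis thaliana genotypes, read as the difference between 4 drought arrays and 4 control arrays with genotype as an additive term. The members are all 8 arrays of the series, chosen by their labels. Total RNA from rosette leaves was hybridised to Affymetrix ATH1 arrays, which report one signal for each probe set. The groups are dor plants under drought, wild-type (WT) plants under drought, dor controls and WT controls, with 2 biological replicates each by their labels. The dor plants carry a T-DNA insertion, Salk-050074, in the Columbia background, and are one insertion line, also called the S29 mutant. Drought plants went 10 days without water after 24 days of watering, and control plants were watered for all 34 days. All were grown in soil at 22 degrees with 16 h of light and 8 h of dark.

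A plant leaf that loses water makes abscisic acid (ABA), a hormone that closes stomata and switches on genes for dehydrins, late embryogenesis abundant (LEA) proteins and other products that protect cells from drying. As drought goes on, growth stops, photosynthetic and ribosomal proteins are made less, and older leaves begin to senesce, recycling amino acids and whole cell parts through autophagy. The gene disrupted in the mutant, DOR, codes for an F-box protein known as a brake on ABA-induced stomatal closure.

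On every array the signals had been scaled to one level, with a trimmed mean of 500.05 to 500.08. The median signal was 97.4 to 120 on arrays of replicate number 1 and 163 to 171 on arrays of number 2, and the bacterial spike-in controls averaged 337 to 447 on arrays of number 1 and 16.3 to 104 on arrays of number 2. The ratio of the middle to the 3′ ubiquitin control probe set, a measure of RNA and labelling quality, was 0.430 to 0.632 on drought arrays and 0.174 to 0.405 on control arrays, without overlap, and its part in the results was not tested. The ubiquitin 5′ to 3′ ratio overlapped between conditions (0.488 to 0.596 on drought arrays and 0.359 to 0.518 on control arrays). The actin and GAPDH 5′ to 3′ ratios overlapped too. DOR itself was below the 40th percentile of its array in every library (2.3 to 5.2 under drought and 3.7 to 21.4 in controls), so it gave no check of the genotype labels. Of the marker genes of leaf mesophyll, RCA (Rubisco activase) was at 9383 or more on every array, and the root marker PYK10 was at 8.3 to 192 under drought and 14.4 to 53.9 in controls. Because whole leaves were used, fewer cells of a type and less RNA per cell cannot be told apart. The p-values rest on the spread among 8 arrays.

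Drought left a broad mark on the leaf in both genotypes. Of 15523 tested probe sets, 902 differed between drought and control arrays at an adjusted p under 0.05 (5.81% of those tested), 441 of them higher under drought (2.84%) and 461 lower (2.97%). Each count of called list members below is to be read beside these shares. The higher ones included linker histone, LEA, dehydrin, amino acid breakdown and autophagy genes. The lower ones included expansins, chlorophyll synthesis enzymes, and ribosomal proteins of the plastid and the cytosol.

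All but 1 of the 902 calls had the same sign in all 4 pairs of same genotype and replicate number, and 845 had drought arrays that did not overlap the control arrays, 413 higher and 432 lower. The calls were made from these same arrays and favour changes large against their spread, so this agreement gives no separate support. Without any test, 3589 tested probe sets (23.1%) were higher under drought in all 4 pairs and 2827 (18.2%) were lower. All 4 drought arrays lay above all 4 control arrays in 1634 probe sets (10.5%) and below them in 1460 (9.41%). The exception among the calls was AT5G01300, chosen after its values were seen, with signals of 5860 and 1995 in dor and 97.9 and 973 in WT under drought, against 158 and 117 in dor and 101 and 20.2 in WT controls. Its pair differences were 5.21 and 4.09 in dor and -0.04 and 5.59 in WT, so the WT pair of number 1 did not share the rise.

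The calls rest on all 8 arrays. The count was 171 without the dor drought array of replicate 1, 207 without the dor control array of replicate 1, 208 without the WT control array of replicate 1, 293 without the dor drought array of replicate 2, 320 without the WT drought array of replicate 1 and 1543 without the WT control array of replicate 2. Without both control arrays of replicate number 1 it was 12. Arrays of the same condition and replicate number deviated together across the genotypes (r = 0.402 for drought and 0.594 for control, over 15523 probe sets), and with that pairing as a random block 12 probe sets were called (0.0773%), 9 higher and 3 lower. Of those 12, 8 stand for a named gene: SAG29, AT3G53980, AT3G16670, AT3G05730, AT1G67920, AT2G21820, AT2G10940 and AT2G37870. Of the 66 called genes that the naming rule picks, the other 58 did not pass with this block, and their adjusted p then lay between 0.0701 and 0.336. Of these 66, 21 kept their call without any one array and 45 lost it without at least one.

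**Figure D1:**
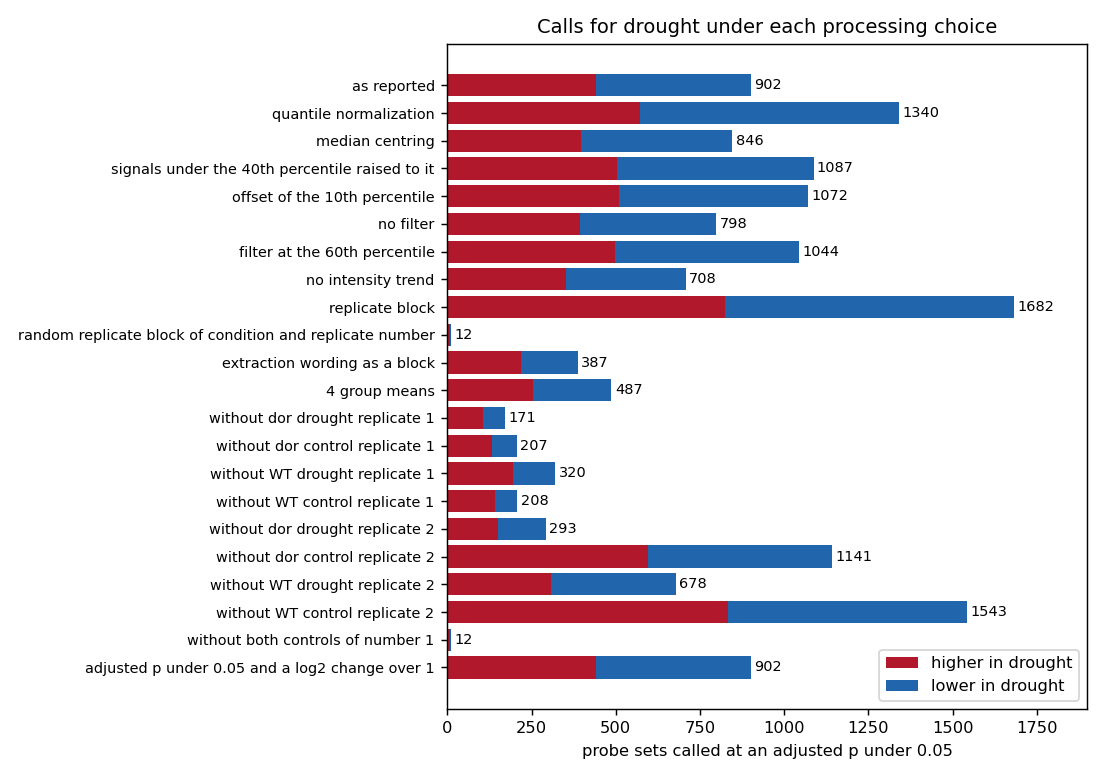
Number of probe sets called for drought (x axis, adjusted p under 0.05) as reported and under each other processing choice (y axis), split into higher (red) and lower (blue) in drought. The bars run from 12 with the random block, and also without both control arrays of number 1, to 1682 with replicate number as a fixed block.

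The called changes were more often larger in the pairs of replicate number 1 than in dor, both given here as counts with no test. The median of all tested differences was 0.26, 0.03, 0.28 and 0.01 on the log2 scale in the dor pair of number 1, the dor pair of number 2, the WT pair of number 1 and the WT pair of number 2, with interquartile ranges of 2.63, 1.15, 2.18 and 1.103. The probe sets called higher had medians of 3.51 and 2.15 in the dor pairs and 2.85 and 2.17 in the WT pairs, and those called lower had medians of -3.92 and -1.80 in the dor pairs and -2.91 and -1.79 in the WT pairs. Of the 441 called higher, 335 rose more in the pairs of number 1 and 286 rose more in dor, and of the 461 called lower, 420 fell more in the pairs of number 1 and 323 fell more in dor. Across the tested probe sets the dor and WT responses of number 1 correlated with r = 0.732, those of number 2 with r = 0.428, and the pairs that shared neither genotype nor number with r = 0.351 and 0.419. Probe sets of one array are not independent, so these values describe likeness and carry no test.

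**Figure D2:**
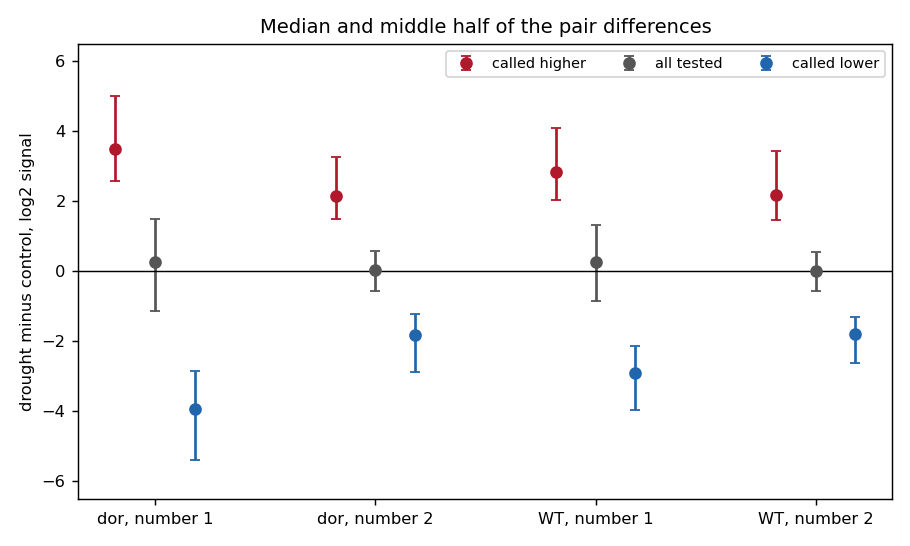
Drought minus control difference in log2 signal (y axis) in each of the 4 pairs (x axis), as the median (point) and the range between quartiles (bar) of the probe sets called higher, all tested and called lower. The dor and WT pairs of number 1 spread more widely (interquartile ranges of 2.63 and 2.18 over all tested) than those of number 2 (1.15 and 1.103).

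In limma's test of whether the drought response differed between the genotypes, 0 probe sets were called and 185 had an unadjusted p under 0.05. The same held with quantile normalization and with replicate number as a block, with 0 called in both and 257 and 316 at an unadjusted p under 0.05. Every adjusted p of the interaction was 1.00. Of the 902 calls, 35 had an unadjusted interaction p under 0.05, and 34 of these moved further in dor. Among named genes, AT5G39520 had a difference of 4.31 between the genotypes and AT1G06830 one of -5.77, with adjusted p = 1.00 for both in limma's interaction test. The opposite direction in the genotypes was seen in 637 of 15523 tested probe sets, none of them called for drought. Opposite differences offset each other in the additive term, so the lack of calls among them carries no weight.

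Many of the calls were graded changes of genes detected in both conditions. Of the 441 called higher, 267 (60.5%) reached the 40th percentile on all 8 arrays, and 64 (14.5%) were below it on all 4 control arrays. Of the 461 called lower, 272 (59.0%) stood at or above it on all 8 arrays and 61 (13.2%) were below it on all 4 drought arrays. A fold change of a gene that is below the percentile in one condition depends on background, so for called genes described below by name the difference is also given with such signals raised to the percentile, where that changes it. A change of at least 2-fold in every pair was found in 496 probe sets that were higher under drought and 535 that were lower. A change of at least 16-fold in every pair was found in 22 and 8. With low signals raised these counts were 401 and 368 at 2-fold, and 7 and 3 at 16-fold.

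The largest changes are ranked here with low signals raised, over calls whose probe set maps to 1 gene, with 1 sign in all 4 pairs and no overlap between conditions. Probe sets with no single gene named here are left out of that ranking, and 12 of them rose and 16 fell by more than the least of the 12 rises and 12 falls so picked. The largest rise was that of HIS1-3, a drought-induced linker histone. Its signal was 8729 and 5668 in dor and 15019.5 and 3153 in WT under drought, against 8.5 and 77.9 in dor and 8.6 and 305 in WT controls. It rose by 7.58 ± 1.13 on the log2 scale (SE, adjusted p = 0.0126), or 6.12 with low signals raised. The drought arrays lay above the control arrays without overlap, and the control of WT number 2 was the highest of the controls.

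SAG29, also called SWEET15, is a sugar transporter named for its rise in senescing leaves. It had 1742 and 5630.3 in dor and 591 and 6234 in WT under drought, against 17.2 and 10.6 in dor and 5.5 and 4.5 in WT controls. The drought arrays were all above 500 and the control arrays all below 20. Its rise of 8.22 ± 0.74 (adjusted p = 0.00316) was 5.06 with low signals raised, since all 4 controls lay under the 40th percentile, and it was still called with the random block (adjusted p = 0.0218).

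SIS, a salt-induced serine-rich protein gene, stood at 18711 and 3176 in dor and 15391 and 1289 in WT under drought, against 163 and 291 in dor and 275 and 83.7 in WT controls. Its rise was 5.01 ± 0.85 (adjusted p = 0.0159, 4.99 with low signals raised) and every drought array exceeded every control array, as the ranking required. Without the dor drought array or the dor control array of replicate 1 the call was lost (adjusted p up to 0.0575).

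Of the 12 largest rises of named genes, AT2G21820 had the smallest spread among its pairs (SD 0.59). Its signals were 7425 and 3442 in dor and 1080.3 and 1784 in WT under drought, against 62.9 and 63.1 in dor and 23.3 and 27.2 in WT controls, and its 4 pair differences were 6.88 and 5.77 in dor and 5.53 and 6.04 in WT. It rose by 6.06 ± 0.39 (adjusted p = 0.00116, and 0.0218 with the random block), or 5.17 with low signals raised. AT3G53980 rose by 6.07 ± 0.55 (adjusted p = 0.00316, 5.57 raised), AT2G37870 by 5.13 ± 0.46 (adjusted p = 0.00316) and AT1G67920 by 4.16 ± 0.42 (adjusted p = 0.00385).

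AT1G05340 had 42048 and 9534 in dor and 3736 and 1308 in WT under drought, against 163 and 60.2 in dor and 90.9 and 70.8 in WT controls, and rose by 6.22 ± 0.75 (adjusted p = 0.00651, 6.01 raised). AT5G39520 rose by 6.90 ± 0.83 (adjusted p = 0.00641, 5.83 raised) and AT3G13672, annotated as SINA2, by 5.16 ± 0.52 (adjusted p = 0.00370, 5.05 raised). All 3 kept their calls without any one array, and their drought and control arrays did not overlap, as the ranking required.

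**Figure D3:**
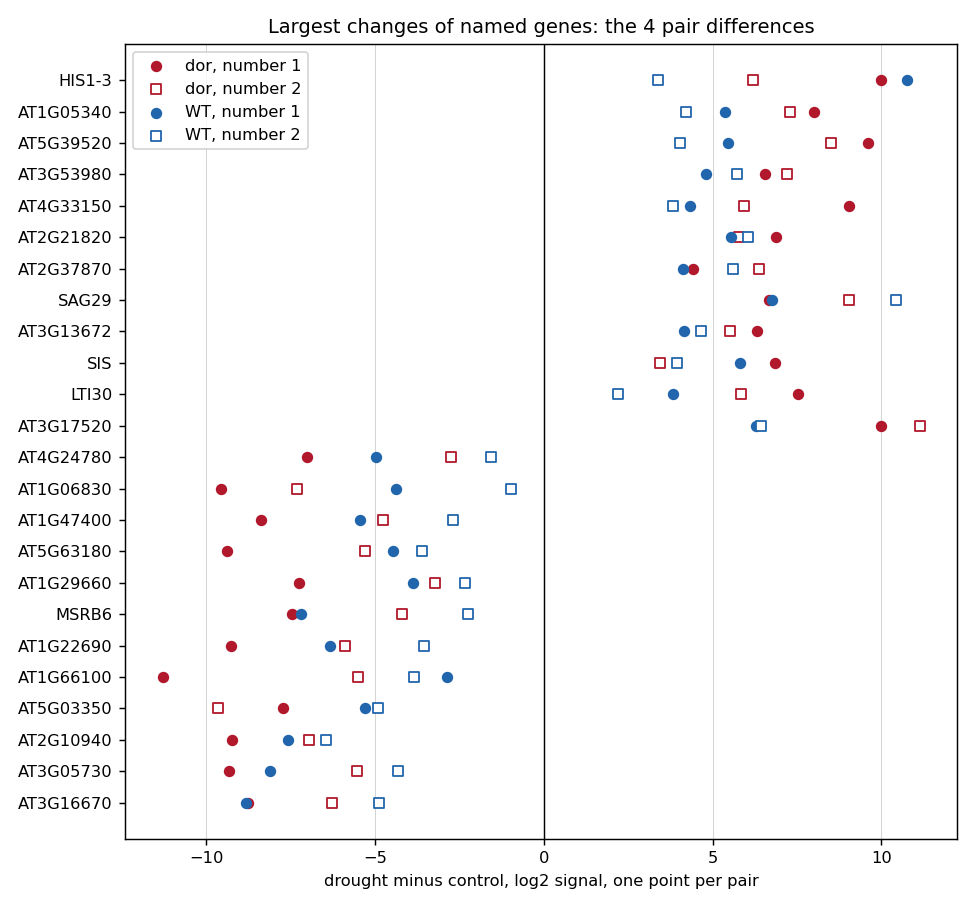
Drought minus control difference in log2 signal (x axis) in each of the 4 pairs for the 12 largest rises and 12 largest falls of probe sets that stand for 1 named gene (y axis), ordered by the difference with low signals raised. Filled circles are pairs of number 1 and open squares pairs of number 2, with dor in red and WT in blue. All 4 points of every gene lie on one side of 0, as the selection required, and the smallest is -0.98 for AT1G06830 in the WT pair of number 2.

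All 6 tested LEA genes were called higher, of 14 with a probe set named here, with a median difference of 5.07 against 0.17 over all tested probe sets. The other 8 did not pass the filter on low signals, and a member that passed it only through the drought arrays had to differ, so this count gives no support to the list. The smallest of the 6 differences was 2.87 and the largest 8.47, and with low signals raised the median was 3.42.

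AT3G17520, on the list of LEA loci, had 7589.6 and 4499 in dor and 249 and 1991 in WT under drought, against 7.4 and 2 in dor and 3.2 and 22.9 in WT controls. All 4 controls were below the 40th percentile, and the rise of 8.47 ± 1.098 (adjusted p = 0.00795) was 4.79 with low signals raised. DI21, a drought-induced LEA gene, stood at 16199 and 3444 in dor and 2813 and 952 in WT under drought, against 239.6 and 133 in dor and 119 and 44.2 in WT controls. It rose by 4.94 ± 0.63 (adjusted p = 0.00775, 4.69 with low signals raised), and its lowest drought array was above its highest control array.

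LEA4-5, which codes for a LEA protein of group 4, had 9934 and 3728 in dor and 158 and 2109.5 in WT under drought, against 161 and 63.1 in dor and 88.5 and 19.2 in WT controls. The WT drought array of replicate 1 was lower than the dor control array of replicate 1, so the conditions overlapped. It rose by 4.86 ± 0.91 (adjusted p = 0.0231, 4.201 with low signals raised) and lost its call without any 1 of 3 arrays, with an adjusted p up to 0.0813.

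Dehydrins are a LEA subgroup that binds membranes and proteins as cells dry, and the COR genes are switched on by cold and drought. Of 6 tested members of this list, 2 were called higher and none lower, with a median of 1.54. Over all tested probe sets, 2.84% were called higher. The dehydrin LTI30 had 45119 and 17566 in dor and 2819 and 3065 in WT under drought, against 243 and 303 in dor and 199.5 and 671 in WT controls, so that the dor drought arrays stood far above those of WT. Its rise was 4.85 ± 0.77 (adjusted p = 0.0147), and the genotype difference of 3.69 was not called in limma (adjusted p = 1.00).

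The dehydrin COR47 had 30059 and 22750.2 in dor and 11597 and 9772 in WT under drought, against 663 and 1163 in dor and 606 and 5929.6 in WT controls. Its rise of 3.69 ± 0.75 (adjusted p = 0.0289) lost its call without any 1 of 5 arrays, with an adjusted p up to 0.0956. The highest of its controls was the WT control array of replicate 2.

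That array stood apart in the other members of the list too. COR15A, a chloroplast-targeted protective protein, was at 11241 on it and at 615 to 3274 on the other controls. COR15B was at 8674 on it and at 372 to 1045 on the others, AT4G30650 at 11035 on it and at 133 to 623 on the others, and AT4G30660 at 6271 on it and at 205 to 346 on the others. Without this array AT4G30660, on the dehydrin and COR list, was called higher (2.43 ± 0.51, adjusted p = 0.0301, against 1.17 and adjusted p = 0.483 with all 8). The differences of COR15A, COR15B and AT4G30650 without it were 2.87 ± 0.93, 0.14 ± 0.70 and 0.53 ± 0.88, none of them called (adjusted p = 0.0768, 0.910 and 0.701).

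Of 11 tested bZIP factors, a family that holds the ABA-responsive binding factors, bZIP44 was called higher and BZIP61 lower, with a median of 0.84. Among all tested probe sets, 2.84% were called higher and 2.97% lower. bZIP44 had 948 and 1228 in dor and 338 and 1105 in WT under drought, against 185 and 223 in dor and 169.6 and 36 in WT controls, and rose by 2.69 ± 0.57 (adjusted p = 0.0328, 2.36 with low signals raised). The bZIP44 call was lost without any 1 of 5 arrays (adjusted p up to 0.0912). BZIP61 had 5 and 4.5 in dor and 3.2 and 3.8 in WT under drought, against 83.7 and 15 in dor and 175 and 187 in WT controls, with all 4 drought arrays under the 40th percentile, and its difference of -4.30 ± 1.06 (adjusted p = 0.0483) was -0.75 with low signals raised, where its call was lost (adjusted p = 0.166).

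HAT2, a homeodomain-leucine zipper factor of the auxin response, stood at 2277 and 2085 in dor and 4386 and 1385 in WT under drought, against 459.8 and 525 in dor and 489 and 344 in WT controls. It rose by 2.37 ± 0.42 (adjusted p = 0.0191), without overlap between conditions. CML41, a calmodulin-like calcium sensor, stood at 8429 and 5658 in dor and 10067 and 3111 in WT under drought, against 143 and 1565 in dor and 168 and 619 in WT controls. Its rise of 3.99 ± 0.77 (adjusted p = 0.0251) made it the 1 called member of 7 tested in that family, whose median was 0.25. Both calls were lost without any 1 of 4 arrays for HAT2 and 5 for CML41.

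None of 5 tested WRKY factors was called, nor the 1 NAC, 1 MYB and 1 ERF or DREB factor. WRKY53, a senescence regulator, had 1156 and 400 in dor and 1303 and 171 in WT under drought, against 183 and 755 in dor and 91.2 and 174 in WT controls, with a difference of 1.39 ± 0.75 (adjusted p = 0.259). The conditions overlapped, and both pairs of number 1 were positive while both pairs of number 2 were negative. NAC014, a membrane-bound NAC factor, had a difference of 1.64 ± 0.56 (adjusted p = 0.104), MYBC1 of 1.14 ± 0.38 (adjusted p = 0.101) and TINY2, of the DREB family, of -2.14 ± 1.04 (adjusted p = 0.214).

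Of 10 tested enzymes that take amino acids apart, on a list written after the values were seen, 5 were called higher and none lower, with a median of 2.39. Over all tested probe sets, 2.84% were called higher and 8726 of 15523 were positive. AT4G33150 codes for LKR/SDH, the bifunctional enzyme that starts lysine breakdown, and had 16001 and 9936 in dor and 1539 and 2341 in WT under drought, against 30.2 and 162 in dor and 76.6 and 165 in WT controls. It rose by 5.78 ± 0.79 (adjusted p = 0.00930, 5.51 with low signals raised), with drought signals in dor several times those in WT (genotype difference 3.42, adjusted p = 1.00 in limma).

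ALDH7B4, the aldehyde dehydrogenase that acts further down lysine breakdown, had 20479 and 15567 in dor and 5014 and 9296 in WT under drought, against 467 and 1932 in dor and 274 and 1058 in WT controls, and rose by 3.95 ± 0.58 (adjusted p = 0.0119). Every drought array was above every control array, and the call held without any one array. IVD, isovaleryl-CoA dehydrogenase of leucine breakdown, had 4276 and 1234 in dor and 1558 and 719.8 in WT under drought, against 115 and 463 in dor and 88.1 and 342 in WT controls, and rose by 2.96 ± 0.67 (adjusted p = 0.0368). Its pair differences of 5.22 and 1.41 in dor and 4.14 and 1.07 in WT were larger in number 1, and its call was lost without any 1 of 5 arrays (adjusted p up to 0.113).

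MGL, methionine gamma-lyase, and DELTA-OAT, the ornithine aminotransferase of the arginine and proline pathways, were also called higher, by 2.81 and 2.36 (adjusted p = 0.00930 and 0.0172). MCCA and MCCB, the subunits of methylcrotonyl-CoA carboxylase in the leucine pathway, had differences of 2.42 and 1.35 and were not called (adjusted p = 0.0630 and 0.170). Of 8 tested aldehyde dehydrogenases, ALDH7B4 was the 1 called, and the median was 0.61.

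Autophagy delivers cytoplasm to the vacuole, and ATG8 proteins coat its membranes. Of 9 tested autophagy genes, all 9 had a positive difference and 2 were called, with a median of 1.43. Over all tested probe sets, 8726 of 15523 were positive and 2.84% were called higher. ATG8B had 1263 and 1098 in dor and 1078 and 804 in WT under drought, against 449.8 and 299.7 in dor and 408 and 249 in WT controls, and rose by 1.61 ± 0.35 (adjusted p = 0.0335) with 4 pair differences of 1.49 and 1.87 in dor and 1.40 and 1.69 in WT. APG8A, the ATG8A gene, had 4711 and 2315 in dor and 2279 and 2329.5 in WT under drought, against 931 and 1331 in dor and 812 and 818 in WT controls, and rose by 1.53 ± 0.35 (adjusted p = 0.0381). In both, all drought arrays lay above all control arrays, but leaving out 1 array ended the call in 7 and 6 of 8 cases. ATG3, which attaches ATG8 to lipid, had a difference of 1.91 and ATG8G one of 1.43, neither called (adjusted p = 0.0600 and 0.0512).

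Of 5 tested genes of senescence and chlorophyll breakdown, SAG29 was the 1 called, and the median was 1.104. NOL, a chlorophyll b reductase, and SAG101, a lipase-like senescence gene, had differences of 0.47 and 0.77 (adjusted p = 0.383 and 0.460). WRKY6, SAG101 and WRKY53 had positive differences in both pairs of number 1 and at least one negative difference in the pairs of number 2.

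**Figure D4:**
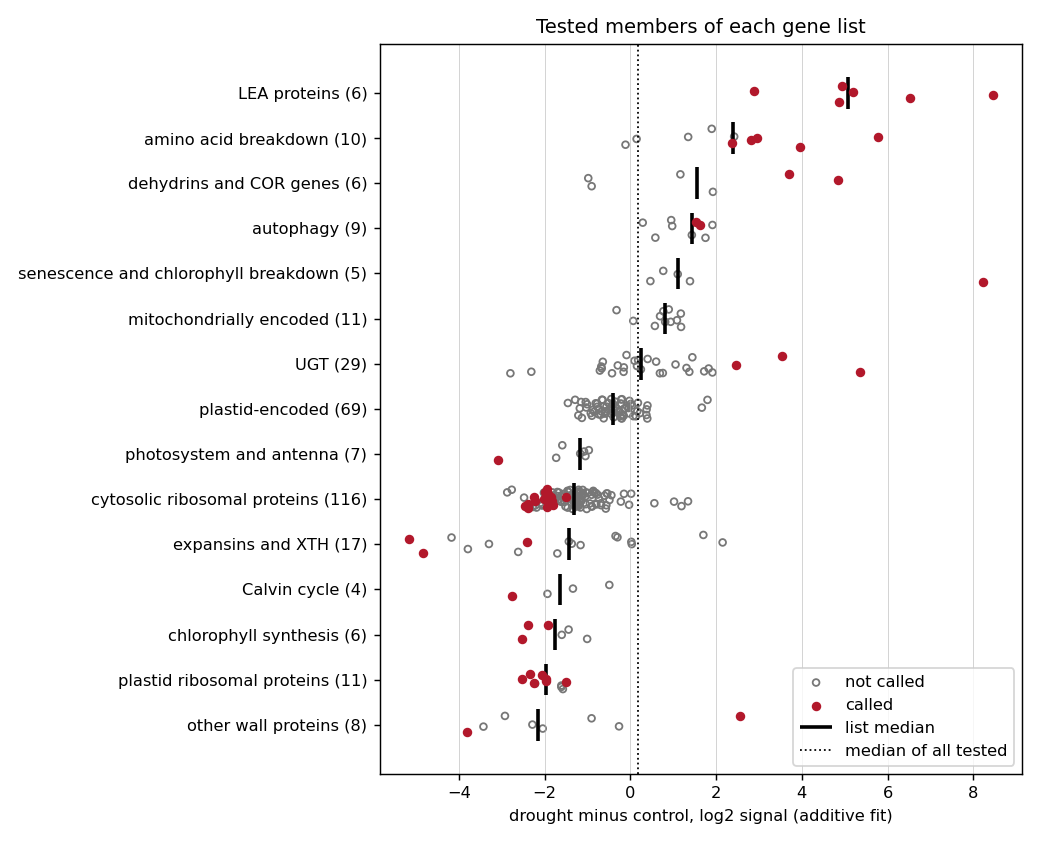
Drought minus control difference in log2 signal of the additive fit (x axis) for the tested members of 15 gene lists (y axis, with the number tested), as points. Filled red points were called, open grey points were not, black bars are list medians and the dotted line is the median of all tested probe sets (0.17). LEA genes lie furthest to the right (median 5.07), and chlorophyll synthesis, plastid ribosomal and other wall genes furthest to the left (medians -1.77, -1.98 and -2.17). With low signals raised, in the same order, these medians were 3.42, -1.77, -1.98 and -0.74.

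Expansins loosen the wall so that cells can grow, and XTH enzymes cut and rejoin its xyloglucan. Of 17 tested, 3 were called lower and none higher, 13 had a negative difference, and the median was -1.44. Over all tested probe sets, 6797 of 15523 were negative and 2.97% were called lower. With low signals raised the list median was -1.18. A further 10 named genes with a probe set did not pass the filter on low signals. A member such as EXPB1, which passed it only through control arrays, had to differ, so the count of calls gives no support to the list.

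EXPA8 had 48.2 and 8.2 in dor and 182 and 42.7 in WT under drought, against 2665 and 849 in dor and 1509 and 1495 in WT controls, with a difference of -5.17 ± 0.78 (adjusted p = 0.0128), or -3.95 with low signals raised, that kept its call without any one array. EXPB1 had 29.6 and 3.9 in dor and 7.9 and 14.1 in WT under drought, against 1048 and 74.9 in dor and 1004 and 107 in WT controls, with all 4 drought arrays under the 40th percentile. Its difference of -4.83 ± 1.08 (adjusted p = 0.0365) was -2.09 with low signals raised, where its call was lost (adjusted p = 0.139). EXPA16 had 54.8 and 52.4 in dor and 356 and 89.2 in WT under drought, against 799.7 and 248 in dor and 525 and 709 in WT controls, and its call (a difference of -2.41 ± 0.58, adjusted p = 0.0463, -2.17 with low signals raised) was lost without any 1 of 6 arrays. The drought signal of EXPA16 in WT replicate 1 exceeded a control, so the conditions overlapped.

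Of 8 tested other wall proteins, GH9C2 was called lower and CSLD2 higher, and the median was -2.17. The endoglucanase GH9C2 had 28.5 and 175 in dor and 24 and 578 in WT under drought, against 1311 and 974 in dor and 1421 and 1523 in WT controls (difference -3.82 ± 0.93, adjusted p = 0.0470, -3.22 with low signals raised). CSLD2, a cellulose synthase-like enzyme, had 4371 and 1899.8 in dor and 1174 and 799.8 in WT under drought, against 188 and 387 in dor and 207 and 431 in WT controls, and rose by 2.56 ± 0.53 (adjusted p = 0.0302). The conditions did not overlap for either. The calls were lost without any 1 of 7 arrays for GH9C2 and 5 for CSLD2.

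Of 15 tested TBL genes, a family of wall polysaccharide acetylation, TBL38 was called higher (3.22 ± 0.57, adjusted p = 0.0191) and TBL45 lower (-4.54 ± 0.78, adjusted p = 0.0167, -3.32 with low signals raised), and the median was -0.80. Among all tested probe sets, 2.84% were called higher and 2.97% lower. Both TBL38 and TBL45 had drought arrays that did not overlap the controls. RALFL34, a RALF peptide hormone, was the 1 of 5 tested RALFL genes that was called (-3.05 ± 0.66, adjusted p = 0.0331). Its signals were 263 and 409 in dor and 291 and 1723 in WT under drought, against 6766 and 1467 in dor and 6524 and 3962 in WT controls, with WT drought replicate 2 above the dor control of replicate 2. The RALFL34 call was lost without any 1 of 5 arrays.

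Of 6 tested chlorophyll synthesis genes, 3 were called lower and none higher, all 6 had a negative difference and the median was -1.77. Among all tested probe sets, 6797 of 15523 had a negative difference and 2.97% were called lower. CHLM, which adds a methyl group to magnesium protoporphyrin, had 395 and 912 in dor and 3782 and 2153 in WT under drought, against 11665 and 4641 in dor and 11314 and 5474 in WT controls. Its difference was -2.54 ± 0.59 (adjusted p = 0.0400), and its call was lost without any 1 of 7 arrays. CHLI2, a subunit of magnesium chelatase, had 104 and 177 in dor and 183 and 336 in WT under drought, against 1251 and 408 in dor and 1155 and 1412 in WT controls (-2.38 ± 0.45, adjusted p = 0.0238), without overlap between conditions. The CHLI2 call was lost without any 1 of 5 arrays.

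HEME1, uroporphyrinogen decarboxylase on the shared path to heme and chlorophyll, had 241 and 276 in dor and 371 and 325 in WT under drought, against 886 and 954 in dor and 875 and 2293 in WT controls (-1.93 ± 0.38, adjusted p = 0.0276). Its drought arrays lay below its controls without overlap, but its call was lost without any 1 of 5 arrays. HEMB1 and GSA1, of earlier steps, had differences of -1.44 and -1.01 and were not called (adjusted p = 0.0931 and 0.115). PORB, the light-dependent reductase, stood at 12126 on the WT control array of replicate 2 and 581 to 1054 on the other controls, with a difference of -1.60 (adjusted p = 0.327) and of -0.69 ± 0.85 without that array (adjusted p = 0.596).

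All 7 tested nuclear photosystem and antenna genes had a negative difference, against 6797 of 15523 tested probe sets, and 1 was called lower, with a median of -1.17. LHCB4.3, an antenna protein of photosystem II, had 150.4 and 503 in dor and 265 and 1368 in WT under drought, against 6092 and 2495 in dor and 5152 and 1874 in WT controls. Its difference was -3.10 ± 0.70 (adjusted p = 0.0369), and the conditions did not overlap, but the call was lost without any 1 of 5 arrays. The other 6, PSAE-1, PSAN, PSBW, PSBY, LHCB4.1 and LHCB4.2, had differences of -0.97 to -1.73, none called. The dor drought array of replicate 1 was the lowest of the 8 in each of them.

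In the Calvin cycle, AT1G56190, on the list of its loci, was called lower (-2.75 ± 0.44, adjusted p = 0.0147), with 470.3 and 693 in dor and 808 and 1869 in WT under drought, against 7569 and 4360 in dor and 6653 and 4652 in WT controls. PRK, SBPASE and RCA had differences of -1.34, -1.94 and -0.49 and were not called (adjusted p = 0.194, 0.119 and 0.478). TAPX, the thylakoid ascorbate peroxidase, was the 1 of 7 tested antioxidant genes called (-2.35 ± 0.57, adjusted p = 0.0462), and the median of that list was -0.30. The TAPX call was lost without any 1 of 6 arrays.

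Plastid and cytosolic ribosomes are built from separate sets of proteins, and both lists used here were written after the values were seen. Over all tested probe sets, 2.97% were called lower and 6797 of 15523 had a negative difference. Of 11 tested plastid ribosomal genes, 7 were called lower and none higher, with a median of -1.98 and all 11 negative. Of 116 tested cytosolic ones, 14 were called lower and none higher, with a median of -1.31 and 111 negative. These counts moved widely with the setting. The cytosolic list had 36 called lower with quantile normalization, 3 with median centring and none with the random block. It had none called lower without the dor drought, dor control, WT drought or WT control array of replicate 1 or the dor drought array of replicate 2, and 7, 38 and 42 without the WT drought, WT control and dor control array of replicate 2. The plastid list had 9 called lower with quantile normalization, 2 with median centring, none with the random block, and 0 to 9 without any one array, with 0 to 2 without each array of replicate 1 and the drought arrays of replicate 2. In the pairs the cytosolic median was -2.05 and -0.84 in dor and -1.95 and -0.68 in WT, larger in number 1.

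Among plastid ribosomal loci, AT1G29070 had 1846 and 1184 in dor and 3980.3 and 1931 in WT under drought, against 24259.5 and 3844 in dor and 21628 and 9554 in WT controls (-2.54 ± 0.59, adjusted p = 0.0415), and AT3G13120 had 745 and 1123 in dor and 1804 and 2062 in WT under drought, against 8694 and 3008 in dor and 7453 and 8232 in WT controls (-2.25 ± 0.40, adjusted p = 0.0196). Among cytosolic ones, AT5G52650 had 1488 and 1141 in dor and 1162 and 1481 in WT under drought, against 12459 and 3974 in dor and 12449.8 and 4478 in WT controls (-2.47 ± 0.47, adjusted p = 0.0240). The other genes named from these lists, AT1G64510, AT1G77940 and AT5G60670, had differences of -2.35, -2.40 and -2.40. The conditions did not overlap for AT3G13120 and AT5G52650, while for AT1G29070 the WT drought array of replicate 1 was above the dor control of replicate 2.

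Of genes encoded in the organelles, on lists also written after the values were seen, none of 69 tested plastid ones was called, with a median of -0.41, and none of 11 tested mitochondrial ones, with a median of 0.81 and 10 positive. The plastid gene atpB, of the ATP synthase, was at 24271 to 39975 under drought and 33114 to 38057 in controls, so the conditions overlapped. The mitochondrial gene nad4, a complex I subunit, had a difference of 0.89 ± 0.40 (adjusted p = 0.183).

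Other families held few calls, where 2.84% of all tested probe sets were called higher and 2.97% lower. Of 29 tested UGT genes, glycosyltransferases of small molecules, 3 were called higher and none lower, with a median of 0.24. UGT73B5 had 1621 and 743 in dor and 663 and 457 in WT under drought, against 8.4 and 88.1 in dor and 4.1 and 42.7 in WT controls, and rose by 5.36 ± 0.90 (adjusted p = 0.0158), or 3.39 with low signals raised. UGT71B6, which conjugates ABA to glucose, had 838 and 202 in dor and 484 and 120 in WT under drought, against 19.4 and 74.8 in dor and 10.3 and 37.4 in WT controls, and rose by 3.52 ± 0.76 (adjusted p = 0.0339). All 4 of its controls were below the 40th percentile, and with low signals raised the difference was 2.1005 and the call was lost (adjusted p = 0.0523). UGT85A5 rose by 2.46 ± 0.55 (adjusted p = 0.0372) and lost its call without any 1 of 6 arrays. The drought arrays of each lay above the controls without overlap.

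Of 14 tested cytochrome P450 genes, CYP78A9 was the 1 called (2.42 ± 0.50, adjusted p = 0.0297), with a median of 0.55. Of 3 tested heat shock genes, AT5G37670 was called higher (2.37 ± 0.47, adjusted p = 0.0272, 2.33 with low signals raised). The CYP78A9 and AT5G37670 calls were each lost without any 1 of 5 arrays. None of 7 tested GSTU genes was called, with a median of -1.56, and none of 9 tested IQD genes, with a median of -1.46 and a difference of -1.47 for IQD24 (adjusted p = 0.0972). GSTU20, a glutathione transferase, had 47.8 and 1366 in dor and 351 and 3604 in WT under drought, against 4424 and 7543 in dor and 7639.6 and 6306 in WT controls and a difference of -3.56 ± 1.07 (adjusted p = 0.0799).

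The auxin response, BGLU, flavonoid, glucosinolate, sugar transporter and cell division lists held no call, with medians of 0.16, -0.61, 0.65, -1.54, 0.01 and -0.61. The members with the largest mean signal, which the naming rule picks where none is called, were IAA18, BGLU44, UGT78D2, BCAT4, SWEET11 and AUR1, with differences of 0.16, -0.02, -0.16, -1.54, 0.17 and -0.61. UGT78D2, which glycosylates flavonoids, had pair differences of -2.20 and 1.03 in dor and -1.96 and 2.48 in WT, negative in number 1 and positive in number 2. The plant defensin PDF1.2 had 74.5 and 127 in dor and 283 and 10887 in WT under drought, against 7139.5 and 14082 in dor and 10338 and 6091 in WT controls, with a WT drought array of replicate 2 as high as the controls, and was not called (adjusted p = 0.0623). WSD1, a wax ester synthase, was not called either (-1.29 ± 1.37, adjusted p = 0.561), and its pair differences of -3.03 and 0.89 in dor and -6.65 and 3.61 in WT were negative in number 1 and positive in number 2.

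Of the guard cell markers, CHX20 and FMA were not called (differences -0.03 and -0.31, adjusted p = 0.955 and 0.680), while AT1G22690 fell. It had 11.6 and 26.2 in dor and 96.3 and 198 in WT under drought, against 7167 and 1571 in dor and 7791 and 2331 in WT controls, a difference of -6.27 ± 0.75 (adjusted p = 0.00641, -5.22 with low signals raised), without overlap. The summed signal of the 3 markers was 677 to 954 under drought and 2575 to 8365 in controls, and its part in other falls was not tested. AT1G22690, at 1571 to 7791 in controls, carried much of that sum, so it does not show a fall of CHX20 or FMA.

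The largest fall by the same ranking was that of AT3G16670. It had 36.4 and 41.5 in dor and 31.3 and 80.1 in WT under drought, against 15721 and 3241 in dor and 14257 and 2385 in WT controls, a difference of -7.19 ± 0.69 (adjusted p = 0.00355), or -6.46 with low signals raised, and it was called with the random block (adjusted p = 0.0218). AT2G10940 had 21.4 and 9.3 in dor and 74.9 and 93.6 in WT under drought, against 12892 and 1147 in dor and 14314 and 8293 in WT controls, a difference of -7.56 ± 0.72 (adjusted p = 0.00355, -6.35 with low signals raised), and its smallest pair difference was -6.47. AT3G05730 had a difference of -6.82 ± 0.73 (adjusted p = 0.00469, -6.37 with low signals raised). Every drought array of these 3 was far below every control array, where a lack of overlap was a condition of the ranking.

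MSRB6, a methionine sulfoxide reductase that repairs oxidised proteins, was the 1 of these 12 falls whose gene has a symbol here. It had 58.9 and 98.2 in dor and 50.2 and 620.3 in WT under drought, against 10440.1 and 1801 in dor and 7344 and 2973 in WT controls, and its difference was -5.28 ± 0.85 (adjusted p = 0.0149, -5.20 with low signals raised). The remaining large falls, AT5G03350, AT1G66100, AT1G29660, AT5G63180, AT1G47400, AT1G06830 and AT4G24780, had differences of -4.08 to -6.90, or -4.01 to -6.02 with low signals raised. The calls of AT1G06830, AT1G66100 and AT4G24780 were lost without any 1 of 6, 5 and 4 arrays. Those of AT5G63180, AT1G47400 and AT1G29660 were lost without any 1 of 2, 2 and 1, and AT5G03350 kept its call. AT1G66100 had pair differences of -11.29 and -5.51 in dor and -2.88 and -3.84 in WT.

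**Figure D5:**
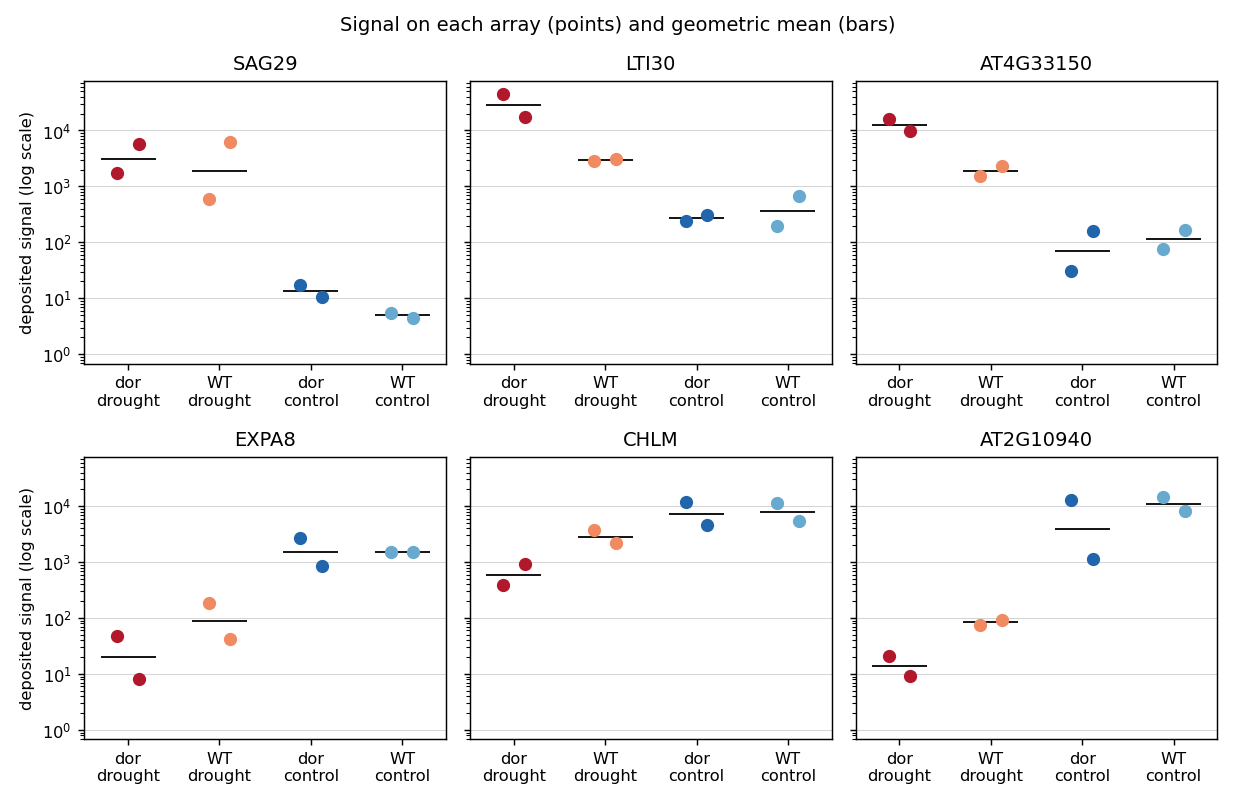
Deposited signal (y axis, log scale) on each of the 8 arrays for 6 genes, by group (x axis, dor drought, WT drought, dor control, WT control). Points are arrays and black bars the geometric means of 2 arrays. SAG29, LTI30 and AT4G33150 are higher, and EXPA8, CHLM and AT2G10940 lower, on every drought array than on every control array.

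Some smaller changes were nearly the same in every pair. CuAO1, a copper amine oxidase, had 1677 and 2457 in dor and 1343 and 1446 in WT under drought, against 365 and 575 in dor and 268 and 316 in WT controls, and its pair differences were 2.20 and 2.096 in dor and 2.32 and 2.19 in WT (SD 0.09). It rose by 2.20 ± 0.33 (adjusted p = 0.0132) and kept its call without any one array. AT3G14595, AT3G15520, AT2G44120 and AT4G14420 also had small spreads among their pairs (SD of 0.19 to 0.24), with differences, the same to 2 decimals with low signals raised, of 1.49, -2.38, -1.50 and -1.35 (adjusted p = 0.0365, 0.0152, 0.0296 and 0.0446). In the same order, their calls were lost without any 1 of 7, 2, 6 and 7 arrays. These genes and CuAO1 were picked for their small spread.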

How the data were processed

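The authors deposited one signal intensity per probe set from Affymetrix ATH1 arrays, made with GCOS and MAS5 per the submitters' processing notes, with versions not given in the sources used here. The intensity was scaled to one trimmed mean before deposit, as the values show. Here log2 of the deposited intensity was taken with a floor of 1. Of 22810 probe sets, 64 controls were left out, and 15523 that reached the 40th percentile of their array on at least 2 arrays were tested. The platform table gave 1 gene for 13513 probe sets, several for 503 and none listed for 8794 (controls included), and 13436 of the first matched RefSeq.

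limma 3.58.1 (R 4.3.3, statmod 1.5.0) fitted condition and genotype as additive terms with a trended prior, and p-values were Benjamini-Hochberg adjusted over all tested probe sets, with calls at 0.05. The code was tested on simulated data. Named genes are the 12 largest called rises and 12 largest called falls with low signals raised to that percentile, among probe sets of 1 gene with 1 sign in all pairs and no overlap, up to 3 called members per gene list (or the member with the largest mean signal), genes called with the random block, and up to 6 with the least spread among pairs. The members and lists were chosen with earlier results of these data known. Replicate numbers did not pair drought with control arrays (deviations correlated with r = -0.04 to 0.05). Promoter motifs were not analysed here for want of sequences. The symbols and loci on the aquaporin, ABA signalling, osmolyte and GASA lists, and of the trichome, phloem, flower and seed markers, matched no probe set named here. These lists were not analysed here, and a family member under another name could have been missed. Alternatives covered normalization, low signals, filters, blocks and leaving out arrays. The number of arrays limits the precision.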

Additional observations from a re-analysis of the deposited data

Results flagged for a closer look

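The plastid gene atpB, of the ATP synthase beta subunit, had drought differences of opposite sign in the genotypes. They were -0.65 and -0.23 in dor and 0.08 and 0.01 in WT, where they were close to no change. Opposite signs of this kind were seen in 637 of 15523 tested probe sets. The difference between genotypes was -0.48 (limma interaction, adjusted p = 1.00), so the test did not call it.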

How the results depend on the processing

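The count of 902 called probe sets (441 higher, 461 lower) was 1682 with replicate number as a fixed replicate block, 487 with 4 group means, 387 with the extraction wording of the labels as a block, and 12 with the random block or without both controls of number 1. Leaving out 1 array gave 171 to 1543. The replicate numbers were not taken as pairs across conditions. It stayed within 1.5 times under quantile normalization (1340), median centring (846), no filter (798), a stricter filter (1044), raised low signals (1087), an offset (1072) and no trend (708). No called probe set changed sign in any of the 20 settings, and 8 were called in all of them. Every setting reuses the same arrays, so a kept sign gives no separate support. The median of all tested differences was 0.17, against 0.05 with quantile normalization and 0.03 with median centring, so small differences depend on scaling. The count of probe sets with 1 sign in all 4 pairs was 6416, and 5290 to 7447 elsewhere. The interaction had 0 calls in limma under each of the 3 settings run, with 185, 257 and 316 at an unadjusted p under 0.05. The median changed sign in at least 1 setting for the sugar transporter, CML, auxin response, flavonoid, antioxidant and cell division lists. Over the 20 settings the calls numbered 0 to 6 on the LEA list, 0 to 7 on amino acid breakdown, 0 to 4 on autophagy and on chlorophyll synthesis, and 0 to 5 on expansins. The cause of these shifts was not tested.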

Other observations

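Several other called genes, chosen after their values were seen, act in starch breakdown, chlorophyll synthesis, hormone action and protein turnover. AMY1, an alpha-amylase, had 2012 and 3681 in dor and 746 and 459.9 in WT under drought, against 76.5 and 118 in dor and 31.9 and 129 in WT controls, and rose by 4.02 (limma, adjusted p = 0.0106, 3.79 with low signals raised). PUB19, a ubiquitin ligase, rose by 3.56 (adjusted p = 0.0131), XERICO, a RING protein linked to ABA levels, by 1.84 (adjusted p = 0.0368), and GID1B, a gibberellin receptor, by 2.93 (adjusted p = 0.0114). HEME2, a further uroporphyrinogen decarboxylase, had a difference of -2.08 (adjusted p = 0.0136), and PSB27, a photosystem II assembly factor, of -1.67 (adjusted p = 0.0463). With the random block none of these 6 was called (adjusted p of 0.153 to 0.241).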
